A study of Rattus norvegicus with 18 samples.

Results

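The comparison described here set cells infected with an adenovirus carrying the short open reading frame sORF7 against cells infected with the control virus of that experiment. It took in the 6 libraries, of 18 in the series, whose titles name sORF7 or its control, 3 in each group, and every gene of the deposited table. The series measured RNA levels, as a table of 19880 genes, in neonatal rat ventricular cardiomyocytes infected with adenoviruses for sORF6, sORF7 or sORF8, each with a control virus of its own. Of these genes, 14870 had enough counts to be tested.

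Both groups of the sORF7 experiment were ventricular cardiomyocytes from Sprague-Dawley rats at postnatal day 2, and both had been treated with phenylephrine (PE) at 20 µM for 24 h. PE stimulates alpha-1 adrenergic receptors, which makes cultured cardiomyocytes hypertrophy and re-express fetal cardiac genes, so the falls below are falls within PE-treated cells, and no cells without PE or without virus entered the comparison. The only labelled difference between the groups was the virus. The peptide or sequence of sORF7, the promoter that drives it, the dose of virus and the content of the control virus are not given in the sources used here, so expression of the insert was not checked. Before culture the cells had been preplated for 1 h, so that non-cardiomyocytes adhere and are removed. The labels do not say if replicate libraries stem from different cultures or animals, so p-values reflect how far these libraries scatter, which could be technical.

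Interferon-stimulated genes are switched on when a cell senses foreign nucleic acid or receives interferon, through transcription factors of the STAT and IRF families, and their products block viral replication and load peptides onto MHC class I. Genes of cholesterol synthesis are driven together by the sterol-sensing transcription factor SREBP2, and genes of antioxidant defence by NRF2. Sarcomere genes encode the contractile machinery, and the fetal cardiac genes, which include those for natriuretic peptides and beta myosin, are the classical markers of the hypertrophic response to PE.

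The libraries held between 17299568 and 17652197 estimated counts, and Actc1, cardiac alpha actin, was the most abundant gene in each. All 8 cardiomyocyte markers were detected and none was called different, with summed levels of 24200 to 26500 FPKM (fragment counts scaled to transcript length and library size) in the control libraries and 23900 to 24200 in the virus libraries. Fibroblast markers summed to 1550 to 1700 FPKM in control and 1500 to 1580 in virus libraries, and smooth muscle markers to 1440 to 1580 and 1590 to 1660. The marker sums of macrophages and leukocytes (51.1 to 58.8 and 49.9 to 55.6), endothelium (9.8 to 10.6 and 9.96 to 11.0) and epicardium (15.8 to 17.3 and 14.7 to 15.9) were far lower, and no marker gene of these cell types was at 0 throughout. Control replicate 1 stood apart: its deviations from the mean of the 6 libraries rose with transcript length (Spearman rho 0.386 across 12604 genes, against −0.205 to −0.015 in the other 5), and titin, encoded by the long Ttn, had 5893, 4437 and 4434 normalised CPM (counts scaled to a common library size) in the controls and 3794, 4478 and 4270.2 in the virus libraries. Results that rest on this library are therefore also given without it. In RNA from whole cultures, fewer cells of a type and less RNA per cell cannot be told apart.

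The sORF7 virus changed the level of 1156 genes, 7.77% of the 14870 tested, at an adjusted p under 0.05 in edgeR's quasi-likelihood test. Of these, 612 were higher (4.12%) and 544 lower (3.66%) with the sORF7 virus. The rises reached further than the falls: 56 genes rose and 15 fell at least 2-fold, and the median change of a called gene was 1.27-fold upward and 1.20-fold downward. All 612 higher genes and 535 of the 544 lower genes had no overlap between the 3 virus and the 3 control libraries, a separation that 11.7% of all tested genes showed upward and 11.3% downward. Without control replicate 1, 827 genes were called, 476 higher and 351 lower, while limma gave 740 rises and 324 falls. Without virus replicate 1, 681 genes were called, 366 higher and 315 lower, and a fit of the 6 libraries alone called 689, 410 higher and 279 lower.

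Among 7 gene lists, the interferon list moved most. Beside interferon-stimulated genes it holds interferon receptors, kinases, chemokines and cytokines, Tnf among them. Of 113 tested members, 86 rose and 1 fell, with a median log2 fold change of 0.77 against −0.0024 over all genes tested. Antioxidant genes rose in 15 of 62 cases and fell in 2, lysosome and autophagy genes rose in 17 of 95 and fell in 1, and stress-response genes rose in 19 of 92 and fell in 3. In the other direction, 26 of 54 sterol and fatty acid genes, 16 of 63 sarcomere genes and 12 of 48 fetal cardiac genes fell, and 1 gene of each of these 3 lists rose. The medians of these 6 lists lay much nearer to 0, at 0.09, 0.10, 0.06, −0.19, −0.13 and −0.06 in the same order. Without control replicate 1 the counts of rises were 79, 12, 17 and 15, and the counts of falls 20, 20 and 13.

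**Figure D1:**
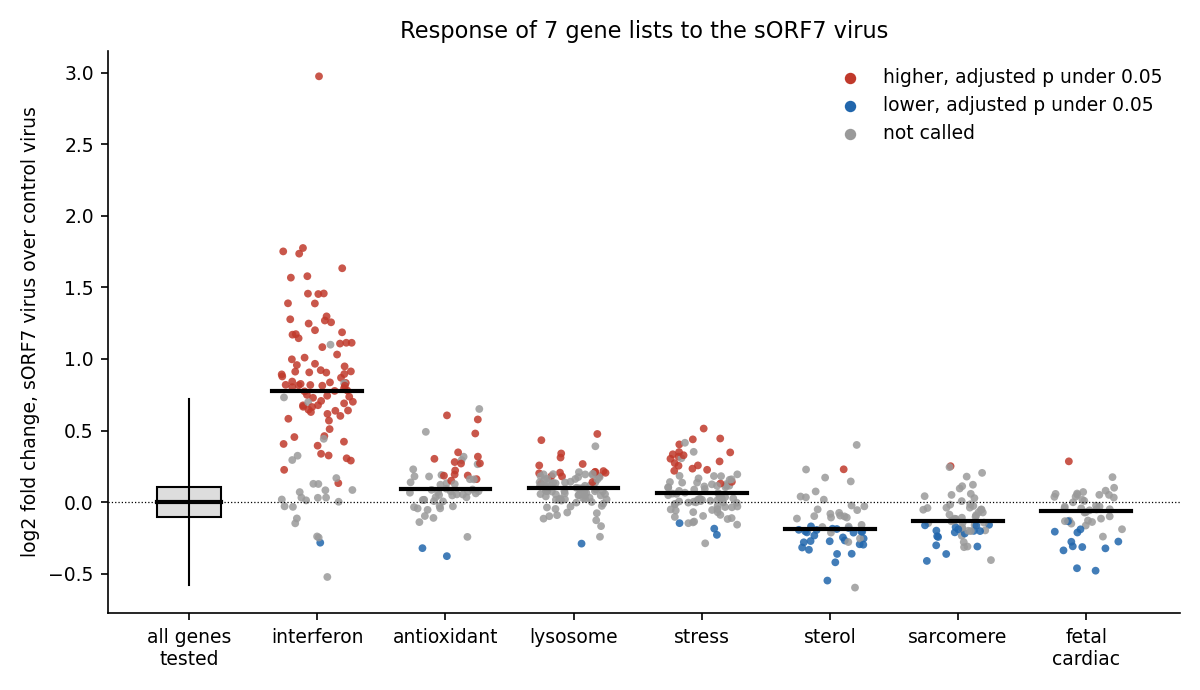
Log2 fold change of each tested member of the 7 gene lists (points, spread sideways to separate them), with the list median as a black line, and for all 14870 tested genes the median, the middle 50% (box) and the middle 95% (line). Red and blue points passed an adjusted p of 0.05, and 62 of 113 interferon members lie above the middle 95% of all genes, whereas members of the other lists lie inside it, apart from 1 sterol gene below it.

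Genes of the interferon list rose in each of 8 roles, from sensors to effectors. Among the sensors of viral nucleic acid, 6 of 9 rose. Ddx58, which encodes the RNA sensor RIG-I, measured 163, 136 and 141 normalised CPM in the 3 control libraries and 296, 269.8 and 257 in the 3 virus libraries, a 1.87-fold rise (log2 fold change 0.90 ± 0.15 SE, adjusted p = 0.000916). Its relative Dhx58 rose 2.04-fold, from 21.5 ± 1.72 to 43.9 ± 6.25 CPM (mean ± SD, n = 3). Cgas, the sensor of cytosolic DNA, rose 1.61-fold from 6.90 ± 0.717 CPM, and Eif2ak2, the double-stranded RNA kinase PKR, rose 1.52-fold from 178 ± 10.9 CPM.

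Of the 17 genes for interferon receptors, kinases and transcription factors, 6 rose, all of them transcription factors of the IRF and STAT families. Irf7 (gene ID 293624, Rnor_6.0 chromosome 1, 214249388 to 214252909), the factor that amplifies interferon production, measured 122, 104 and 113 CPM in control and 305, 245 and 229 CPM in virus libraries. The lowest virus library was well above the highest control library, and the rise was 2.30-fold (log2 fold change 1.20 ± 0.17, adjusted p = 0.000162). Stat2 rose 1.63-fold (125 ± 6.52 to 202 ± 13.8 CPM) and Irf1 1.59-fold (18.4 ± 1.25 to 29.2 ± 1.92 CPM). The receptor chains of type I interferon, chosen after their values were seen, did not pass the test: Ifnar1 measured 69.2 ± 1.31 and 67.6 ± 1.18 CPM (adjusted p = 0.769) and Ifnar2 24.6 ± 1.32 and 26.1 ± 0.14 CPM (adjusted p = 0.567).

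Of 31 tested genes for direct restriction of viruses 26 rose. Rsad2, which encodes viperin, an enzyme that makes a chain-terminating nucleotide, measured 39.7, 35.5 and 36.8 CPM in control and 124, 118 and 106 CPM in virus libraries, a 3.10-fold rise (log2 fold change 1.63 ± 0.20, adjusted p = 3.88e-05). Bst2, whose product tetherin holds budding virions on the cell surface, measured 23.8, 21.1 and 21.6 CPM in control and 81.7, 59.7 and 57.3 CPM in virus libraries, and rose 2.99-fold. Virus replicate 1 was the highest of the 3 virus libraries for Bst2, as it was for Isg15, Irf7 and Gbp1, and the groups stayed apart in each case. The 1 that fell was Ifitm1, a membrane protein that blocks viral entry, which went from 44.2 ± 3.28 to 36.3 ± 1.01 CPM while Ifitm3 rose from 106 ± 2.02 to 141 ± 11.1 CPM. The call for Ifitm1 (adjusted p = 0.0137) was lost without virus replicate 2, control replicate 2 or control replicate 3 (adjusted p 0.0546 to 0.0607). Both genes were chosen after their values were seen. The Ifitm genes are close paralogs, as are the Oas1, Gbp, Mx and RT1 genes, and the division of reads among such copies is uncertain.

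Of the 8 genes for 2-5A synthetases, the synthetase-like Oasl and Oasl2, and RNase L, 6 rose. The synthetases detect double-stranded RNA, and RNase L degrades RNA in response. Oasl measured 24.8, 25.1 and 23.3 CPM in control and 87.2, 78.3 and 78.1 CPM in virus libraries, a 3.33-fold rise (log2 fold change 1.74 ± 0.13, adjusted p = 4.91e-07), and Oas1a rose 2.62-fold from 20.4 ± 0.572 CPM. All 9 tested interferon-induced GTPases, which coat and disrupt intracellular pathogens, rose. Gbp1 rose 2.74-fold, from 38.8 ± 5.13 to 107 ± 21.1 CPM, and Mx2 2.26-fold, from 280.1 ± 36.4 to 632 ± 73.8 CPM.

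Every tested gene of the ISG15 pathway rose, 5 of 5. Isg15, a ubiquitin-like protein that is attached to other proteins, measured 30.6, 27.4 and 28.4 CPM in control and 96.8, 81.6 and 77.6 CPM in virus libraries, a 2.97-fold rise (log2 fold change 1.57 ± 0.15, adjusted p = 6.29e-06). Its activating enzyme Uba7 rose 2.28-fold, its conjugating enzyme Ube2l6 1.67-fold, the ligase Herc6 2.16-fold, and Usp18, which removes ISG15 and dampens interferon signalling, 2.12-fold.

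The MHC class I route also rose in full, 17 of 17 genes. B2m, the light chain of every class I molecule, measured 385, 426 and 360.0 CPM in control and 648, 569.9 and 593 CPM in virus libraries, a 1.55-fold rise (log2 fold change 0.63 ± 0.07, adjusted p = 1.83e-05). Tap1, of the peptide transporter, rose 1.76-fold from 55.6 ± 3.12 CPM, and Tapbp, the tapasin that bridges transporter and class I molecule, 1.76-fold from 51.6 ± 0.693 CPM. The immunoproteasome subunit Psmb8 rose 2.00-fold, from 7.08 ± 0.311 to 14.1 ± 2.05 CPM. Of 31 genes of the constitutive proteasome 1 rose and 0 fell.

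Chemokines and cytokines rose in 11 of 17 cases. Cxcl10 (gene ID 245920, Rnor_6.0 chromosome 14, 17210733 to 17212930), which attracts T cells, measured 28.5, 29.9 and 25.7 CPM in control and 107, 87.1 and 88.9 CPM in virus libraries, a 3.37-fold rise (log2 fold change 1.75 ± 0.13, adjusted p = 3.57e-07). Ccl2, which attracts monocytes, rose 1.58-fold (56.0 ± 5.05 to 88.8 ± 9.20 CPM). Tnf rose 2.75-fold from a low level, 1.62, 1.87 and 1.78 CPM in control and 5.16, 5.43 and 3.91 CPM in virus libraries. Macrophages and leukocytes also produce these factors. Of 7 tested markers of these cells 0 rose and 2 fell, Csf1r (adjusted p = 0.0353) and Lyz2 (adjusted p = 0.0362). The part of these cells in the chemokine and cytokine rises was not tested. The call for Csf1r was lost in limma and in a fit of the 6 libraries alone. It was also lost without virus replicate 2, virus replicate 3, control replicate 1 or control replicate 3 (adjusted p 0.0712 to 0.163 over these settings). That for Lyz2 was lost in limma, in a fit of the 6 libraries alone and with a replicate block, which takes same-numbered libraries as pairs. Leaving out virus replicate 2, virus replicate 3, control replicate 2 or control replicate 3 lost it too (adjusted p 0.0564 to 0.167 over these settings).

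**Figure D2:**
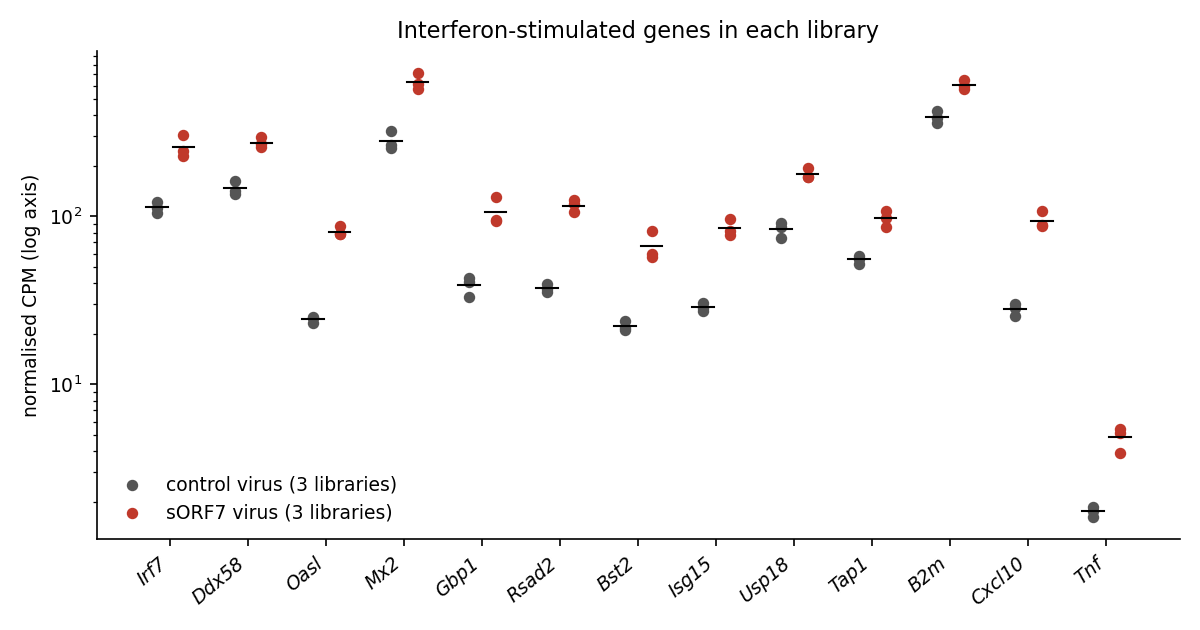
Normalised CPM of 13 genes of the interferon list, Tnf among them, in each of the 3 control libraries (grey) and 3 sORF7 libraries (red) on a log axis. Black lines mark the group means. For each gene the 3 virus libraries lie above the 3 control libraries, from Tnf at 1.76 and 4.83 CPM to Mx2 at 280.1 and 632 CPM on average. The plotted genes are a selection: over the whole list this separation held for 91 of 113 tested members, against 11.7% of all tested genes.

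Promoters were compared with the letters of known binding motifs, in windows of 300 bases, from 250 before to 50 after the annotated start, which RefSeq gives on build GRCr8 for 11467 tested genes and 531 of the 674 tested list members. The interferon-stimulated response element, searched as GAAA, any 2 bases and GAAA on both strands, was in 57.4% of the 68 interferon members that rose and had a promoter, in 48.3% of all 89 interferon members, and in 2.95% of all promoters. It was in 13.8% of 479 genes called higher, 6.57% of the 411 of these outside the interferon list, 1.47% of 407 genes called lower and 2.51% of genes not called. The promoters below are those of 3 genes described above. Each is shown because it holds the interferon element, in capitals, and because 2 matches overlap in Bst2 and in Tapbp. A match is a description of these letters and not a measured binding site.
Bst2: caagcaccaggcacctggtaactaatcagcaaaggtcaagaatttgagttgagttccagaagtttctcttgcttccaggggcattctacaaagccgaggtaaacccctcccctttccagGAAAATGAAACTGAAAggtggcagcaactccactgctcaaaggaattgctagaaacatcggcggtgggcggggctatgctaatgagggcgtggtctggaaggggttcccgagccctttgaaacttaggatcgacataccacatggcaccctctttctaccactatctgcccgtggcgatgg
Tapbp: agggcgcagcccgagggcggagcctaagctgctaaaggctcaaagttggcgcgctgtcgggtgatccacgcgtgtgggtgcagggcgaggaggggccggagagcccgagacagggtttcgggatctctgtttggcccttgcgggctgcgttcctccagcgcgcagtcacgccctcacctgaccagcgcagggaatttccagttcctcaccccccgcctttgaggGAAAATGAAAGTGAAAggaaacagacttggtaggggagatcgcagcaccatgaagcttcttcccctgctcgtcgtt
Irf7: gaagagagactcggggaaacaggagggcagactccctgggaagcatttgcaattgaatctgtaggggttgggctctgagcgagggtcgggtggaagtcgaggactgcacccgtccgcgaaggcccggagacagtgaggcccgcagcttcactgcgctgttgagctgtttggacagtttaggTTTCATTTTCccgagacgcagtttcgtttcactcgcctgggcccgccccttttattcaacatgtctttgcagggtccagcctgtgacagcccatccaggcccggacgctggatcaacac
These windows are chr16:18254918-18255217 for Bst2, chr20:4967828-4968127 for Tapbp and chr1:205799974-205800273 for Irf7, each on the minus strand of GRCr8 and printed 5′ to 3′ along the gene. The Irf7 match is on the opposite strand to the gene and so reads TTTCATTTTC. Of these genes, Bst2 rose 2.99-fold, Irf7 2.30-fold and Tapbp 1.76-fold.

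Antioxidant genes rose in a smaller number and by less. Hmox1, heme oxygenase 1, which degrades heme and is a classical NRF2 target, measured 34.8, 34.5 and 33.9 CPM in control and 56.8, 49.8 and 47.4 CPM in virus libraries, a 1.49-fold rise (log2 fold change 0.58 ± 0.06, adjusted p = 1.27e-05). Srxn1, sulfiredoxin, which repairs oxidised peroxiredoxins, measured 20.2, 19.4 and 19.5 CPM in control and 32.2, 29.4 and 28.4 CPM in virus libraries, and rose 1.52-fold (adjusted p = 1.88e-05). The groups were apart in both genes, and the control libraries lay within a narrow band. The 15 rises ranged from 1.11-fold to 1.52-fold.

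Within glutathione metabolism 4 of 18 genes rose and 1 fell. Gclc, the catalytic subunit of the enzyme that limits glutathione synthesis, rose 1.21-fold from 90.7 ± 2.52 to 110.2 ± 3.66 CPM, while its modifier subunit Gclm measured 23.0, 21.0 and 24.1 CPM in control and 27.4, 24.2 and 23.5 CPM in virus libraries, with overlap (adjusted p = 0.431). Gstp1, a glutathione transferase, measured 99.9, 102 and 101 CPM in control and 122, 128 and 123 CPM in virus libraries, a 1.23-fold rise (adjusted p = 8.92e-05). Of 16 genes for heme, iron and quinone handling 4 rose, among them Ftl1, ferritin light chain (1.21-fold, 319 ± 21.5 to 385 ± 5.73 CPM), and Akr1b8, an aldo-keto reductase (1.39-fold). Nqo1, a quinone reductase that is often used as a reporter of NRF2 and was chosen here after its values were seen, measured 22.7, 22.5 and 23.1 CPM in control and 22.6, 21.3 and 21.9 CPM in virus libraries, so the groups overlapped (adjusted p = 0.717).

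NRF2 itself, encoded by Nfe2l2, rose 1.12-fold, from 164 ± 8.15 to 184 ± 6.64 CPM (adjusted p = 0.0162). That call was lost in a fit of the 6 libraries alone and without virus replicate 1, virus replicate 2 or control replicate 2 (adjusted p 0.0553 to 0.11). Its small partner Mafg rose 1.14-fold. The superoxide dismutases Sod1 and Sod2 rose 1.17-fold and 1.14-fold, but the call for Sod1 was lost without virus replicate 1, virus replicate 2, virus replicate 3 or control replicate 1 (adjusted p 0.0608 to 0.106), and that for Sod2 in a fit of the 6 libraries alone and without virus replicate 1 or control replicate 1 (adjusted p 0.0687 to 0.0838). Txnip, which binds and inhibits thioredoxin, went the other way: it measured 417, 445 and 423 CPM in control and 327, 326 and 336 CPM in virus libraries and fell 1.30-fold (log2 fold change −0.38 ± 0.04, adjusted p = 9.75e-06).

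The 17 lysosome genes that rose did so by 1.09-fold to 1.39-fold. Grn, progranulin, a lysosomal regulator that is also secreted, measured 189, 205 and 210.3 CPM in control and 283, 268 and 264 CPM in virus libraries, a 1.35-fold rise (log2 fold change 0.43 ± 0.04, adjusted p = 2.2e-06). The autophagy receptor Sqstm1, also known as p62 and itself a target of NRF2, measured 191, 223 and 230.1 CPM in control and 303, 299.8 and 293 CPM in virus libraries and rose 1.39-fold (adjusted p = 1.75e-05). In the group of cathepsins and proteases, which also holds Grn, 6 of 14 genes rose. Ctsd, cathepsin D, rose 1.19-fold (344 ± 20.7 to 411 ± 3.15 CPM), Ctsa 1.15-fold, and Psap, the precursor of the saposins that present lipids to hydrolases, 1.13-fold.

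In the group of glycan and lipid hydrolases 5 of 23 genes rose, including Gaa, acid alpha-glucosidase (1.20-fold). The group also holds Gnptg, which is not a hydrolase and whose call was lost in 6 of 13 alternative settings. Of 12 lysosomal membrane proteins 3 rose, but the calls for Lamp2 and Scarb2 were lost in 5 and 8 of 13 alternative settings. Lamp1 measured 449, 472 and 471 CPM in control and 546, 539.7 and 531 CPM in virus libraries, a 1.16-fold rise (adjusted p = 0.000225). Of 15 subunits of the lysosomal proton pump only Atp6v1a was called (1.15-fold). Of 22 autophagy genes 2 rose, Sqstm1 and Optn (1.10-fold). The call for Optn was lost with no filter on low counts, in a fit of the 6 libraries alone and with a replicate block. It was also lost without virus replicate 1, virus replicate 3 or control replicate 3 (adjusted p 0.0537 to 0.179 over these settings). None of 9 regulators was called, among them Tfeb, the transcription factor of lysosome biogenesis, at 42.3, 49.4 and 49.6 CPM in control and 44.8, 46.4 and 43.0 CPM in virus libraries (adjusted p = 0.579). Without virus replicate 3 the count of lysosome rises was 10 in place of 17. Macrophages are rich in these genes, and their summed markers, given above, overlapped between the groups. The part of macrophages in the lysosome rises was not tested.

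The integrated stress response, in which phosphorylation of eIF2-alpha slows translation and induces ATF4, had 8 of 20 genes higher and 2 lower. Trib3, a pseudokinase target of ATF4 and CHOP, measured 22.3, 23.3 and 23.6 CPM in control and 31.6, 29.8 and 32.3 CPM in virus libraries, a 1.35-fold rise (log2 fold change 0.44 ± 0.07, adjusted p = 0.000561). Ddit3, which encodes CHOP, rose 1.32-fold (28.3 ± 0.349 to 37.5 ± 4.19 CPM), Ppp1r15a (GADD34, which reverses eIF2-alpha phosphorylation) 1.23-fold and Chac1, which degrades glutathione, 1.26-fold. The 2 members that fell, chosen after their values were seen, belong to amino acid and folate metabolism: Asns, asparagine synthetase, fell 1.17-fold (169 ± 3.07 to 144 ± 3.65 CPM) and Mthfd2 1.14-fold. The call for Mthfd2 was lost in a fit of the 6 libraries alone and without virus replicate 3 or control replicate 1 (adjusted p 0.0676 to 0.0728). Atf4 measured 431 ± 15.9 and 433 ± 21.3 CPM (adjusted p = 0.948).

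None of 22 genes for endoplasmic reticulum chaperones and the unfolded protein response passed the test. Hspa5, the chaperone BiP, measured 1519, 1448 and 1507 CPM in control and 1470.2, 1451 and 1502 CPM in virus libraries (log2 fold change −0.02 ± 0.03). Of the 22 p53 targets 5 rose and 1 fell: the cell cycle inhibitor Cdkn1a rose 1.16-fold (278 ± 9.04 to 323 ± 4.19 CPM), the p53 ligase Mdm2 1.25-fold and the nuclease Aen 1.19-fold. NF-kB feedback genes rose in 4 of 12 cases, with Nfkbiz 1.27-fold higher, and heat shock genes in 2 of 16. The calls for Bcl3, Relb and Tnfaip3 were lost in 4, 6 and 6 of 13 alternative settings. Those for the heat shock genes Hsp90aa1 and Hspb8 were lost in 3 and 7. Without virus replicate 1 the count of stress rises was 11 in place of 19.

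**Figure D3:**
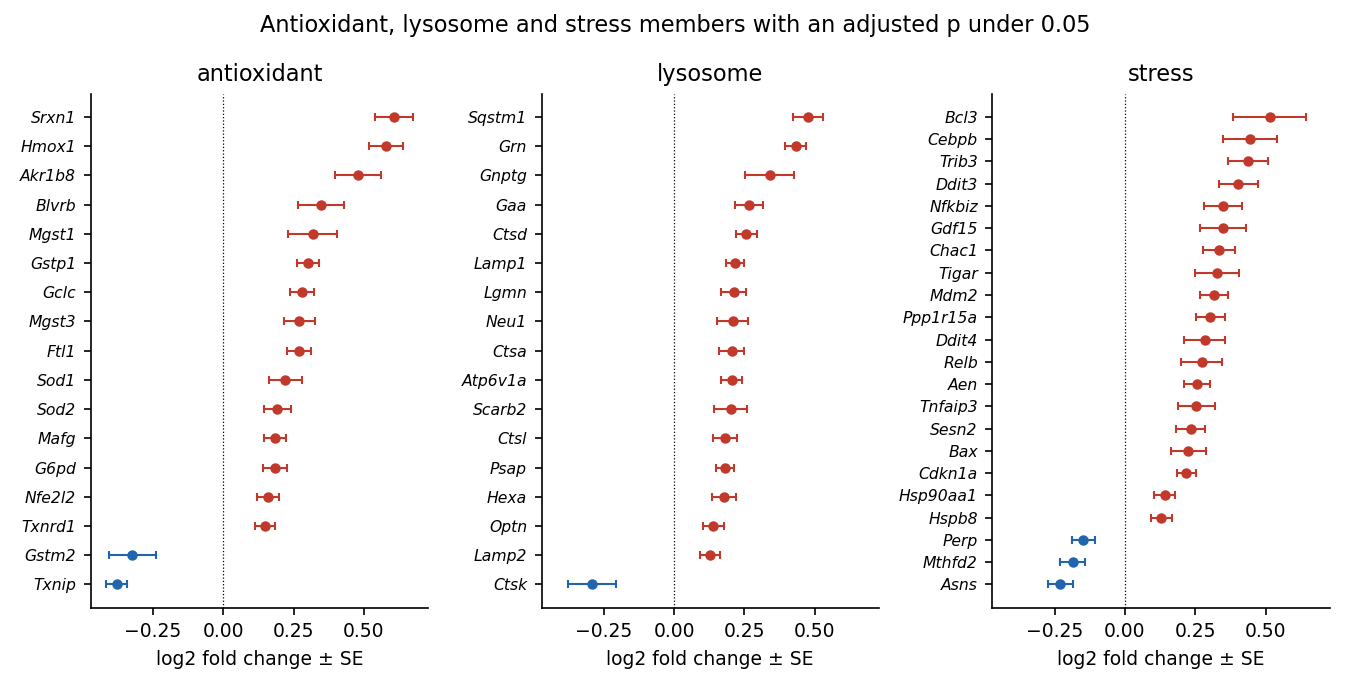
Log2 fold change with its standard error for antioxidant, lysosome and stress members with an adjusted p under 0.05 (1 lysosome member is not shown), ordered by size within each list, red for higher and blue for lower with the sORF7 virus. Srxn1 and Hmox1 lead the antioxidant list, Sqstm1 and Grn the lysosome list, and Txnip is the lowest point.

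The promoters of these lists held fewer matches. The CLEAR element to which TFEB binds, searched as CACGTGAC on both strands, was in 28.6% of the 14 lysosome members that rose and had a promoter, in 14.5% of all 76 and in 3.64% of all promoters. The interferon element of the preceding search was also in 35.7% of those 14, among them Lamp1, Grn and Atp6v1a. The antioxidant response element, searched as TGAC, any 3 bases and GCA, was in 7.84% of 51 antioxidant members against 2.75% of all promoters. Of the 12 antioxidant members that rose and had a promoter only 1, Gstp1, held it (8.33%). The ATF4 element TGATGNAA was in 15.8% of 19 integrated stress response genes against 2.02% of all promoters. Lamp1 is shown for its 4 CLEAR matches, Gstp1 for its antioxidant element, and Trib3 for its ATF4 element, which is on the opposite strand.
Lamp1: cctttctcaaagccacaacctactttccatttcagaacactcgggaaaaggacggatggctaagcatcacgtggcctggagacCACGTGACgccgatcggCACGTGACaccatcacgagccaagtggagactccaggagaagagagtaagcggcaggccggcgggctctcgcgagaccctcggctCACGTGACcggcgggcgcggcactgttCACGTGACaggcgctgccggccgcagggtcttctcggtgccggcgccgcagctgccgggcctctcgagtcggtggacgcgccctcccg
Gstp1: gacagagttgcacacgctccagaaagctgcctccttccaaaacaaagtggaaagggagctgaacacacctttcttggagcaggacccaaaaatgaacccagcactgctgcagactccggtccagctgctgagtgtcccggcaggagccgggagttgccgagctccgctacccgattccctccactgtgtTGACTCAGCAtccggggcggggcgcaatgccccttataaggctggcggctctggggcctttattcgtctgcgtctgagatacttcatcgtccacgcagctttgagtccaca
Trib3: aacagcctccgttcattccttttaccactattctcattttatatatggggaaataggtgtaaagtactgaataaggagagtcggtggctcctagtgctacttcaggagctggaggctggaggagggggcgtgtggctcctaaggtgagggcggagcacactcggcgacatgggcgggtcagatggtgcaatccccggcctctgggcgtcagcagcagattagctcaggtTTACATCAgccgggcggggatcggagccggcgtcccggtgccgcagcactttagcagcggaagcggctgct
On GRCr8 these windows are chr16:83075014-83075313, chr1:210769656-210769955 and chr3:161275484-161275783, all on the minus strand. Their genes rose 1.16-fold, 1.23-fold and 1.35-fold.

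Sterol synthesis genes fell at steps along the whole pathway. Of the 10 genes from acetoacetyl-CoA to squalene 7 fell, and of the 11 from squalene to cholesterol 8 fell, and all 21 had a negative log2 fold change in the fit of all libraries. Hmgcs1, HMG-CoA synthase, measured 660.4, 601 and 626 CPM in control and 503, 513 and 498 CPM in virus libraries and fell 1.25-fold (log2 fold change −0.32 ± 0.04, adjusted p = 2.15e-05). Downstream, Fdps fell 1.26-fold (685 ± 19.7 to 544 ± 6.89 CPM) and the squalene synthase Fdft1 1.21-fold.

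The step from squalene began with Sqle, squalene epoxidase, the second point of control, which measured 184, 181 and 178 CPM in control and 142, 152 and 148 CPM in virus libraries and fell 1.23-fold (adjusted p = 2.15e-05). Hsd17b7, a sterol 3-ketoreductase, had the furthest fall of the pathway: 37.9, 36.6 and 35.4 CPM in control and 23.7, 26.7 and 24.8 CPM in virus libraries, 1.46-fold lower (log2 fold change −0.55 ± 0.06, adjusted p = 1.45e-05). The groups were clearly apart, and the highest virus library was below the lowest control library by more than the range within either group. Cyp51, lanosterol demethylase, fell 1.14-fold.

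Some regulators and neighbours of the pathway fell as well. Srebf2, which encodes SREBP2, fell 1.18-fold (211 ± 8.60 to 179 ± 5.64 CPM) and Insig1, which retains SREBP in the endoplasmic reticulum, 1.14-fold. Among fatty acid genes 6 of 15 fell, led by the stearoyl-CoA desaturases: Scd fell 1.34-fold (89.4 ± 4.35 to 66.8 ± 4.83 CPM) and Scd2 measured 1118, 1027 and 1024 CPM in control and 807, 821 and 839 CPM in virus libraries, 1.28-fold lower (adjusted p = 4.57e-06). Mid1ip1, an activator of acetyl-CoA carboxylase chosen after its values were seen, was the 1 member that rose (1.17-fold), and its call was lost in a fit of the 6 libraries alone (adjusted p = 0.0604). Abca1, the cholesterol exporter that sterols induce through LXR, measured 45.0 ± 1.89 and 37.1 ± 1.71 CPM (log2 fold change −0.28 ± 0.10, adjusted p = 0.0904). Sterol regulatory elements, searched as TCACNCCAC, matched 0 of 40 sterol promoters and 1.15% of all promoters, which says only that these letters are not in these windows.

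**Figure D4:**
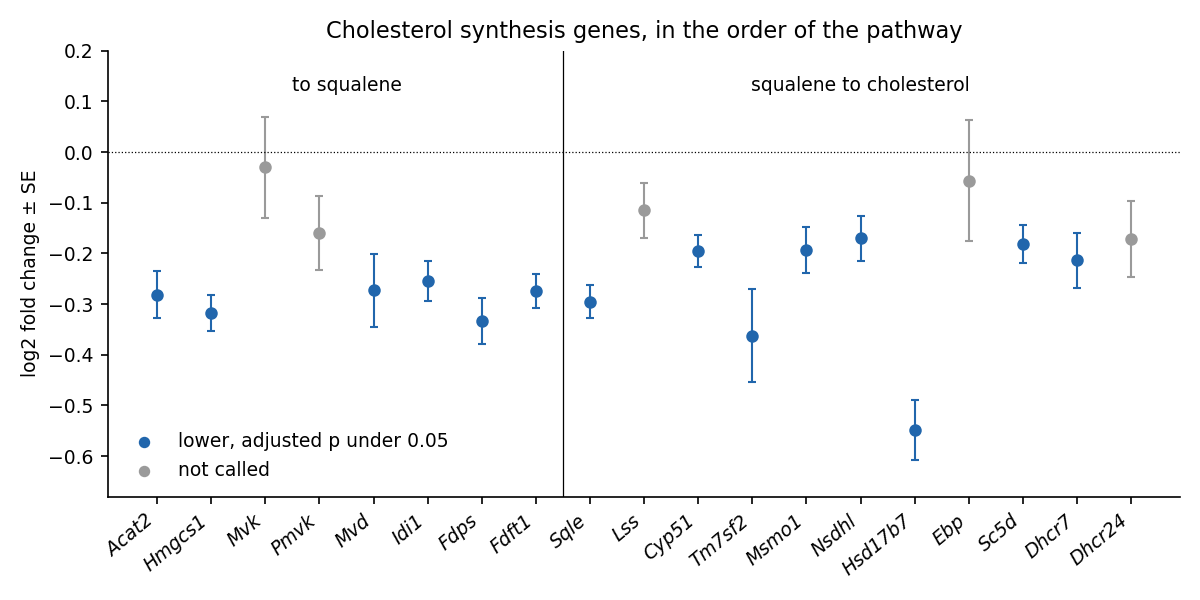
Log2 fold change with its standard error for 19 genes of cholesterol synthesis in the order of the pathway, blue where the adjusted p was under 0.05 and grey where it was not. All 19 points lie below 0, and the lowest is Hsd17b7 at −0.55.

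The 16 sarcomere genes that fell did so by 1.12-fold to 1.33-fold. In the M-band and thick filament 5 of 14 fell. Myom1, myomesin 1, which cross-links thick filaments, measured 780.2, 787 and 744 CPM in control and 611, 636 and 617 CPM in virus libraries and fell 1.24-fold (log2 fold change −0.31 ± 0.04, adjusted p = 2.15e-05). Its relative Myom2 fell 1.33-fold (443 ± 49.8 to 333 ± 12.9 CPM), Mybpc3, cardiac myosin-binding protein C, 1.18-fold (1527 ± 45.2 to 1294 ± 41.6 CPM), and Myl2, the ventricular myosin light chain, which was chosen after its values were seen, 1.29-fold.

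At the Z-disc, which anchors the thin filaments, 7 of 18 fell. Actn2, alpha-actinin 2, measured 3192, 3215 and 3034 CPM in control and 2703, 2730.0 and 2675 CPM in virus libraries and fell 1.16-fold (log2 fold change −0.22 ± 0.03, adjusted p = 9.74e-05). Ldb3, known as ZASP or cypher, fell 1.18-fold and Pdlim5 1.15-fold. Of 10 thin filament genes 2 fell, Tpm1 and Tmod1, and each lost its call in 4 of 13 alternative settings. The most abundant, Actc1, measured 21856, 23728 and 23422 CPM in control and 20825, 20167 and 20731 CPM in virus libraries, which did not overlap but did not pass the test (adjusted p = 0.0529), and Tnnt2, cardiac troponin T, measured 4654 ± 384 and 4203 ± 119.9 CPM (adjusted p = 0.0622).

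Calcium cycling genes were called in 2 of 13 cases, among them Casq2, the calcium buffer of the sarcoplasmic reticulum, which fell 1.12-fold (1219 ± 11.8 to 1088 ± 46.8 CPM). The call for Slc8a1 was lost in 5 of 13 alternative settings. The calcium release channel gene Ryr2 measured 1100.1, 1007 and 855 CPM in control and 857, 1002 and 899 CPM in virus libraries, with overlap (adjusted p = 0.651). None of 8 genes for the energy supply of contraction was called. With a correction for the length trend of each library, the list had 28 falls in place of 16. Without control replicate 1 there were 20. Beside these falls none of the 8 cardiomyocyte markers, several of which are sarcomere genes, was called, and their median log2 fold change was −0.07.

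Fetal cardiac genes fell in 12 of 48 cases. Nppa, the precursor of atrial natriuretic peptide (gene ID 24602, Rnor_6.0 chromosome 5, 164808407 to 164809716), measured 3529, 4015 and 4033 CPM in control and 3026, 2934 and 3201 CPM in virus libraries and fell 1.26-fold (log2 fold change −0.34 ± 0.05, adjusted p = 0.000579). Nppb, the precursor of the brain-type peptide, fell 1.21-fold (1037 ± 68.4 to 856 ± 42.5 CPM). The 3 virus libraries were below the 3 controls in both. Receptors and the processing enzymes of these peptides were not called.

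Among fetal contractile isoforms 3 of 11 fell, but the call for Myl4 was lost in 6 of 13 alternative settings. Myh7, beta myosin heavy chain, measured 11907, 12857 and 11445 CPM in control and 8549, 9111 and 8619 CPM in virus libraries and fell 1.38-fold (log2 fold change −0.46 ± 0.06, adjusted p = 8.92e-05). Myh6, the alpha isoform of the adult rat ventricle, measured 6069, 7042 and 6629.7 CPM in control and 7247, 7902 and 7590.3 CPM in virus libraries. Its virus libraries were all above its controls, but the log2 fold change of 0.20 ± 0.07 did not pass the test (adjusted p = 0.0972), and reads of these near-identical genes, which overlap in the annotation on chromosome 15 may be divided between them with error. Acta1, skeletal alpha actin, fell 1.21-fold (2048 ± 136 to 1691 ± 46.2 CPM), while Acta2, smooth muscle actin, measured 1672 ± 93.0 and 1792 ± 43.5 CPM (adjusted p = 0.184).

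Of 17 cardiac transcription factors 3 fell. Gata4, which activates Nppa and Nppb among other genes, measured 413, 434 and 399 CPM in control and 338, 339 and 328 CPM in virus libraries and fell 1.24-fold (log2 fold change −0.31 ± 0.03, adjusted p = 1.45e-05). Tbx20 fell 1.25-fold. Of 13 genes of the hypertrophy response 4 fell and 1 rose. Ankrd1, a stretch-responsive titin-binding protein, fell 1.24-fold (7729.9 ± 322 to 6217 ± 98.3 CPM), Fhl1 1.15-fold and the immediate early gene Egr1 1.39-fold (51.2 ± 4.79 to 36.7 ± 3.11 CPM). The gene that rose was Myc (1.22-fold, chosen after its values were seen), and its call was lost without virus replicate 1 or control replicate 1 (adjusted p 0.0516 to 0.0762). Rcan1, a readout of calcineurin activity, measured 357 ± 14.4 and 369.7 ± 9.68 CPM (adjusted p = 0.497).

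**Figure D5:**
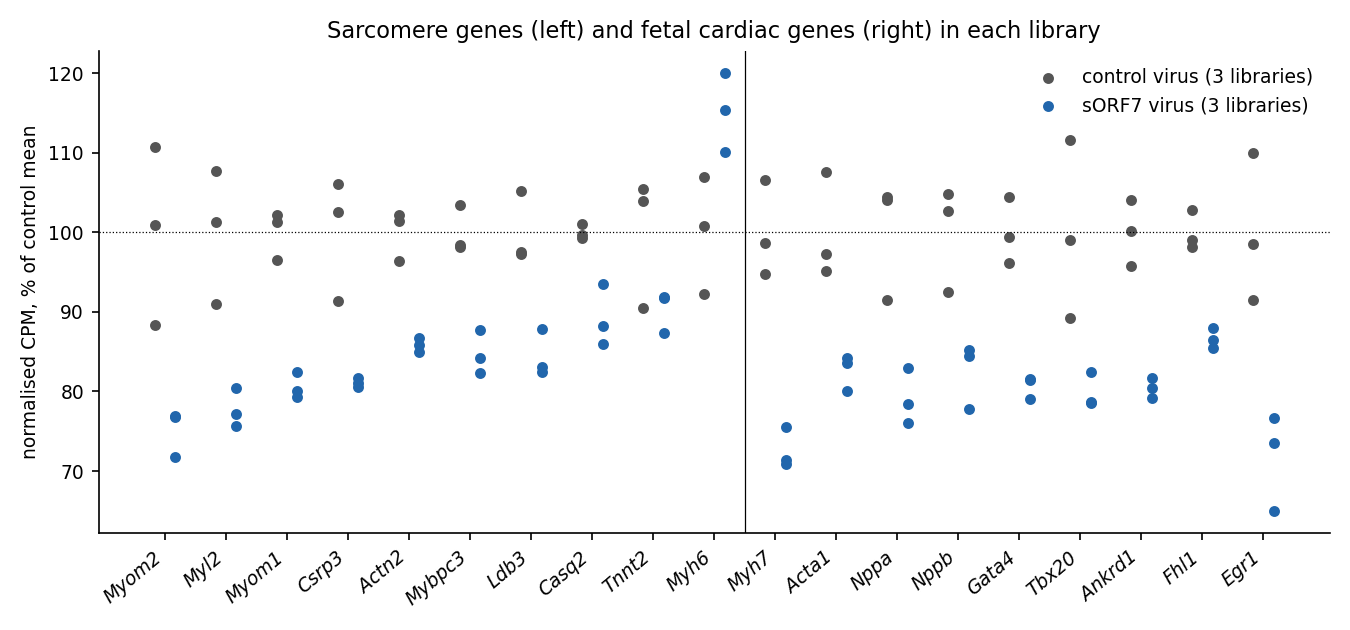
Normalised CPM of 10 sarcomere genes (left of the line) and 9 fetal cardiac genes (right) in each library, as a percentage of the mean of the 3 control libraries (grey, control; blue, sORF7 virus). For 17 of these genes all virus libraries lie below all controls, Tnnt2 overlaps, and Myh6 lies above. The plotted genes are a selection: over the whole lists the same separation downward held for 27 of 63 sarcomere and 17 of 48 fetal cardiac genes, against 11.3% of all tested genes.

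MEF2, a family of transcription factors of muscle genes, binds a motif searched here as CTA, any 4 bases and TAG. It was in 25% of the 12 sarcomere members that fell and had a promoter, in 19.2% of all 52, and in 2.96% of all promoters. Mybpc3 is shown with its match in capitals, in chr3:97550811-97551110 on the plus strand of GRCr8.
Mybpc3: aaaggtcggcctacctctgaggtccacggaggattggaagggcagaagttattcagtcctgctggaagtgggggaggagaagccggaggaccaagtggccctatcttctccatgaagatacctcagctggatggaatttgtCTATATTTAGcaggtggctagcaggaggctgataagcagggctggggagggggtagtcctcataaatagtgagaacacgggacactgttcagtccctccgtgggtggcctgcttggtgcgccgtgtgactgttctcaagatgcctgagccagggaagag
The gene fell 1.18-fold. Among genes called lower as a whole the share with this motif was 3.93%.

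Calls in 6 other programmes varied, beside 4.12% of all tested genes called higher and 3.66% called lower. None of 21 respiratory chain genes and none of 18 fatty acid oxidation genes was called. Of 15 glycolysis genes 3 rose (20%). Among them were Slc2a4, the insulin-regulated glucose transporter GLUT4 (1.39-fold, 53.4 ± 5.13 to 74.2 ± 2.17 CPM), and Pkm, pyruvate kinase (1.12-fold). Of 15 mitosis genes 1 fell, Ccnb1 (1.47-fold). Of 13 matrix genes 1 rose (7.7%), 2 fell (15.4%) and 10 were not called, with a median log2 fold change of −0.0066. Mmp3, a matrix metalloproteinase, rose 1.82-fold (1.91, 1.75 and 2.29 CPM in control and 2.91, 3.79 and 4.14 CPM in virus libraries, adjusted p = 0.0147). The collagen gene Col3a1 fell 1.15-fold and Postn, periostin, 1.11-fold. The call for Mmp3 was lost without virus replicate 2, virus replicate 3, control replicate 1 or control replicate 2 (adjusted p 0.0501 to 0.0724), and that for Postn in a fit of the 6 libraries alone and without virus replicate 2, virus replicate 3 or control replicate 1 (adjusted p 0.0634 to 0.097). Col3a1 and Postn are also fibroblast markers, of which 3 of 9 fell.

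Called genes with a symbol and no overlap were ranked if their mean log2 CPM over all 18 libraries was 1 or more. The largest rise by log2 fold change was that of Bpifb4, a secreted lipid-binding protein family member (3.82-fold, adjusted p = 3.37e-05). It measured 0.406, 0.525 and 0.516 CPM in control and 2.30, 1.53 and 1.76 CPM in virus libraries. The next in order were Cxcl10, Oasl, Rsad2, Bst2 and Isg15. The largest fall was that of Acot1, a cytosolic acyl-CoA thioesterase, at 2.84, 2.68 and 2.23 CPM in control and 0.897, 0.962 and 0.906 CPM in virus libraries (2.79-fold lower, adjusted p = 0.00086). Bpifb4 and Acot1 were both low in the 6 libraries compared, and the floor on level was set on the mean over all 18, other experiments included. Dpp4, a cell-surface peptidase, fell 1.84-fold (3.86 ± 0.232 to 2.09 ± 0.194 CPM) and Nsg2, a neuronal vesicle protein, 1.69-fold (12.2 ± 0.642 to 7.19 ± 0.156 CPM). Of the 612 higher genes 145 were in a list described here, and of the 544 lower genes 67.

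Cardiomyocytes of the same age and PE treatment, infected with the other 2 viruses, were compared as responses against their own controls. The sORF7 response differed from the sORF6 response in 1659 genes (11.2% of those tested; 6.27% above 0 and 4.88% below 0), and from the sORF8 response in 1148 (7.72%; 3.80% and 3.92%). Of 113 interferon genes the difference was above 0 in 88 against sORF6 and in 43 against sORF8, and below 0 in 0 and 1. With the sORF6 virus the median interferon gene had a log2 fold change of −1.10 and 83 were called lower, and with the sORF8 virus the median was 0.11 and 3 were called higher. The shares of all tested genes called with these other viruses themselves are not given here. Calls with them, here and in the next paragraph, therefore have no background beside them. Isg15 shows the levels: it measured 26.9 ± 6.55 FPKM with the control virus and 3.05 ± 0.471 with the sORF6 virus, 44.1 ± 2.79 and 133 ± 16.4 in the sORF7 experiment, and 10.6 ± 2.69 and 8.42 ± 2.77 in the sORF8 experiment (mean ± SD, n = 3 each). For this gene the 3 control groups stood at different levels, with the sORF7 control the highest, and differences between the experiments and between the control viruses cannot be told apart. This holds for other lists too. In the sORF6, sORF7 and sORF8 controls Gstp1 measured 116 ± 4.74, 134 ± 0.939 and 358 ± 6.58 FPKM, while Grn was closer together at 87.7 ± 1.12, 93.3 ± 4.71 and 89.7 ± 1.63 FPKM.

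Of 54 sterol genes the difference passed the test and was below 0 in 18 and above 0 in 2 against sORF6. Against sORF8 it passed and was below 0 in 29 and above 0 in 1, and 22 of the 54 were called higher with the sORF8 virus itself. For Scd2 the FPKM were 214 ± 4.67 and 218 ± 3.36 FPKM for control and virus in the sORF6 experiment, 205 ± 11.3 and 162 ± 3.36 in the sORF7 experiment and 141 ± 2.60 and 182 ± 2.84 in the sORF8 experiment. Of 63 sarcomere genes it was below 0 in 25 and 33 and above 0 in 3 and 0, and of 48 fetal cardiac genes below 0 in 16 and 14 and above 0 in 4 and 1. With the sORF6 and sORF8 viruses themselves 7 and 21 sarcomere genes were called higher and 2 and 0 lower, again without a background share. Of the fetal cardiac genes 6 and 9 were called higher and 3 and 2 lower. Myh7 measured 2186 ± 244 and 2582 ± 101 FPKM for control and virus in the sORF6 experiment, 1982 ± 106 and 1461 ± 44.8 in the sORF7 experiment and 1340.1 ± 22.4 and 1682 ± 69.0 in the sORF8 experiment, and its difference of responses passed the test against both (adjusted p = 1.17e-05 and 8.38e-06). Of 62 antioxidant genes the difference was above 0 in 19 and 16 and below 0 in 3 and 2, and 9 of them were called lower with the sORF8 virus itself. Of 95 lysosome genes it was above 0 in 20 and 8 and below 0 in 3 and 1. Of 92 stress genes it was above 0 in 28 and 23 and below 0 in 5 and 9. With the sORF6 virus itself 0 of the stress genes were called higher and 11 lower, and with the sORF8 virus 10 and 10.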

How the data were processed

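Sequenced total RNA from 18 libraries was given as 1 table. Per the submitters' processing notes the tools were HISAT2 2.0.4, RSEM 1.2.12 and DESeq2 1.4.5, with genome build Rnor_6.0; settings are not given in the sources used here. As values, the authors deposited estimated counts per gene, which need not be whole, and FPKM, which divides them by transcript length and depth.

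Estimated counts were rounded and fitted with edgeR 4.0.16 (R 4.3.3): TMM scaling, filterByExpr over the 6 groups, and the quasi-likelihood test over all 18 libraries, which share 1 estimate of spread with 12 residual degrees of freedom. Adjusted p is Benjamini-Hochberg over 14870 genes, and called means under 0.05. Values in CPM are TMM-normalised counts on a common library size; values after ± are standard errors for log2 fold changes and SDs (n = 3) for means of CPM or FPKM. FPKM served for marker sums, for levels across the 6 groups and, as log2(FPKM + 1), for the limma 3.58.1 alternative. On simulated counts of 14674 genes, edgeR recovered 24% of genes changed 1.25-fold, 80% at 1.5-fold, 88% at 2-fold and 100% at 4-fold. It called 6 of 14475 unchanged genes. Small changes were thus often missed in the simulation, in which depth was not varied. The simulated libraries had no length trend and none stood apart, so the count of false calls need not hold for the real libraries.

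The gene lists and the genes described were chosen with earlier results of these data known. Named genes are, first, the 12 genes that rose most and the 12 that fell most. These were called, without overlap and averaging log2 CPM 1 or more over all 18 libraries. In each role group an anchor gene and up to 4 called members with the smallest p were added. So were the 5 smallest p for each difference of responses, and members of groups of 6 or fewer. Ttn, Ifitm1, Ifitm3, Ifnar1, Ifnar2, Nqo1, Asns, Mthfd2, Mid1ip1, Myl2 and Myc were chosen after their values were seen. Promoter sequences are from RefSeq on GRCr8, not the build of the table, and were matched by gene. Alternatives were DESeq2 1.42.0, its size factors in edgeR, limma, no filter, the 6 libraries alone, each library left out, a replicate block and a length correction. Values of some list members are not reported here, and counts include them.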

Additional observations from a re-analysis of the deposited data

Results flagged for a closer look

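The response to the sORF7 virus was tested against the responses to the sORF6 and sORF8 viruses, as a difference of differences in the same edgeR fit. It differed from the sORF6 response in 1659 genes and from the sORF8 response in 1148 genes. Each experiment had its own control libraries, so a difference between experiments can enter these counts, and its part was not tested.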

How the results depend on the processing

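Of 150 called genes picked by the rule for named genes, 106 kept their call and direction in all 13 alternatives, 44 lost the call in at least 1 and 0 reversed. No gene called in both the main test and an alternative had the opposite sign. Fitting only the 6 libraries called 689 genes in place of 1156, with 279 lower and 11 lysosome rises. In limma 324 were lower. The length correction gave 28 sarcomere falls in place of 16. Leaving out 1 library at a time gave 681 to 954 genes called, 366 to 498 higher and 315 to 456 lower, with the lowest of each without virus replicate 1. Without control replicate 1, 351 were lower. The same removals gave 10 to 17 lysosome rises and 11 to 16 stress rises. With a replicate block 1022 genes were called, 943 of them shared with the main test; same-numbered libraries did not deviate together (Pearson r 0.0852, 0.0843 and −0.0581 across genes), so the numbers were not taken as pairs. Of the 150 called genes picked by the rule, 13 lost their calls with the block. Among them were Optn, Lyz2 and Bcl3 (adjusted p = 0.0891, 0.0634 and 0.0776 in edgeR). Among genes near 0, Atf4 ranged from −0.026 to 0.044 on the log2 scale over the removals (negative without virus replicate 1 or control replicate 1) and was −0.023 with the length correction, and Hspa5 ranged from −0.038 to 0.0044 (positive without control replicate 1) and was 0.0063 in limma. The cause of these shifts was not tested.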

Other observations

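The genes given here are single calls outside the lists, chosen after their values were seen, and stand for no group. Ch25h, which makes 25-hydroxycholesterol, measured 2.67, 2.39 and 1.83 normalised CPM in control and 5.16, 4.81 and 3.85 CPM in virus libraries (2.00-fold, adjusted p = 0.00387), and Nos2, inducible nitric oxide synthase, 8.29, 15.6 and 11.3 and 23.4, 23.9 and 23.6 CPM (2.01-fold). Of genes known from inflammatory cell death, Casp4, Ripk3 and Mlkl rose 1.51-fold, 1.43-fold and 1.34-fold, and Lcn2, an iron-binding secreted protein, 1.39-fold. In these genes the 3 virus libraries lay above the 3 controls.

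Among single genes that fell, Igf1 and Igf2, the insulin-like growth factors, fell 1.41-fold (32.1 ± 2.38 to 22.7 ± 2.25 CPM) and 1.29-fold (75.0 ± 9.08 to 58.2 ± 3.42 CPM). The collagen genes Col5a3 and Col8a2 fell 1.47-fold and 1.46-fold, and Eln, elastin, 1.24-fold, whereas the list of 13 matrix genes had 1 rise, 2 falls and a median log2 fold change of −0.0066. Of 9 fibroblast markers 3 fell beside them, and the part of fibroblast number in these falls was not tested. Arrdc4, a paralog of Txnip that is induced by glucose through the same transcription factors, fell 1.42-fold. Ntrk2, the receptor of brain-derived neurotrophic factor, fell 1.47-fold while the gene of the factor, Bdnf, rose 1.44-fold. Maoa, monoamine oxidase A, which degrades noradrenaline, measured 52.5, 48.0 and 51.5 CPM in control and 74.1, 72.3 and 77.7 CPM in virus libraries, a 1.47-fold rise (adjusted p = 4.18e-06).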
